A study of Mus musculus with 16 samples.

Results

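The genes described here encode the nuclear subunits of the mitochondrial respiratory complexes II, III and IV and of ATP synthase (complex V). They were chosen by name as 40 rows of the deposited table of 12012 genes. Complex II gave 4 genes, complex III gave 9, complex IV gave 12 and ATP synthase gave 15, and all 40 were found. Total RNA and ribosome-protected fragments (RPF, the mRNA stretches that a ribosome shields from nuclease) were sequenced from leukaemic cells of C57BL/6 mice. Each mouse had received a secondary transplant of T-ALL (T cell acute lymphoblastic leukaemia) that NOTCH-ΔE, a constitutively active Notch receptor, had caused, and GFP-positive cells were sorted from the spleen after 3 weeks on diet. Diets held 0 g/kg, 0.4 g/kg or 0.8 g/kg valine, against 8 g/kg in the control diet, and every group carried NOTCH-ΔE T-ALL. Doses are those of the sample characteristics, while the treatment protocol speaks of drinking water for the intermediate ones. Each diet had 2 libraries per fraction, from T-ALL 2 and T-ALL 3, so the series holds 16 libraries. What these numbers mark (tumour, recipient mouse or both) is not given in the sources used here, and p-values therefore measure only the spread between these samples.

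Complex II, succinate dehydrogenase, oxidises succinate in the citric acid cycle and passes the electrons to ubiquinone, and unlike the other respiratory complexes it is encoded by nuclear genes alone. Complex III hands electrons from ubiquinol to cytochrome c, complex IV hands them from cytochrome c to oxygen, and both pump protons across the inner membrane. ATP synthase lets the protons back through a rotating ring and uses the motion to make ATP. In complexes III and IV and in ATP synthase the nuclear subunits surround a core that mitochondrial DNA encodes in part, so subunits from both genomes must be made in step. The series title places valine supply in relation to complex I, the NADH dehydrogenase that starts the chain, and the comparisons below ask how the subunits of the remaining complexes stood in the same libraries.

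FPKM values (fragments per kilobase of gene, set to the size of the library) could be turned back into whole reads for every gene. Libraries held 364685 to 1269364 reads in total RNA and 41848 to 205545 reads in RPF. The shallowest RPF library was T-ALL 2 at 8 g/kg, and 34 of the 40 genes had under 10 RPF reads in at least 1 library. In total RNA the smallest count of any of the 40 genes was 7 reads. Of 16 T cell markers, at most 1 was at 0 reads in any library at 0 or 8 g/kg, and together they took 71.7 and 74.5 reads per 10000 of total RNA at 0 g/kg, against 71.8 and 88.5 at 8 g/kg (T-ALL 2, then T-ALL 3, as in all pairs of values below). Neutrophil and erythroid markers moved with diet: 11 neutrophil markers took 4.70 and 2.22 reads per 10000 at 0 g/kg, against 0.173 and 0.165 at 8 g/kg, where 3 and 7 of them were at 0 reads. The 11 erythroid markers took 0.341 and 0.280 reads per 10000 at 0 g/kg, against 1.68 and 4.31 at 8 g/kg. In RPF the neutrophil markers took 26.8 and 3.41 reads per 10000 at 0 g/kg, against 0.239 and 0.420 at 8 g/kg, and the erythroid markers 0.871 and 2.53, against 4.78 and 17.6. The part of these cells in the results below was not tested.

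Levels of the 40 genes spanned 56.1-fold in total RNA, and the nuclear-encoded catalytic part of ATP synthase was at the top. Atp5b, the catalytic beta subunit (chromosome 10, 128083307-128090388, GRCm38), averaged 933.9 ± 92.6 FPKM (SD, n = 8). Atp5a1, the alpha subunit beside it in the F1 head, averaged 588.4 ± 61.5 FPKM, and Cox4i1, the largest nuclear subunit of complex IV, averaged 584.8 ± 53.5 FPKM (SD, n = 8 each). These last 2 did not differ beyond their spread. Uqcrh, the hinge protein of complex III, was its highest member at 253.5 ± 21.0 FPKM, and Sdhb, the iron-sulfur subunit, was the highest of complex II at 156.3 ± 11.9 FPKM. At the low end stood Atp5g1 with 21.3 ± 1.62 FPKM and Sdhc, a membrane anchor of complex II, with 16.6 ± 4.50 FPKM.

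The c-ring of ATP synthase can be built from Atp5g1, Atp5g2 or Atp5g3, which encode the same mature protein, and their mRNA levels were far apart. Atp5g3 averaged 332 FPKM and Atp5g2 255 FPKM, against 21.3 FPKM for Atp5g1. The gap depends on the gene length used for FPKM, because the length implied for Atp5g1 was 6.26 times that of Atp5g2 while its reads were 0.514 times as many. Over the 40 genes, implied lengths differed up to 9.25-fold, so the order of levels leans on lengths whose source is not given in the sources used here. Comparisons of one gene between libraries do not depend on them.

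RPF levels followed a similar order across the genes (Pearson's r 0.84, Spearman's rho 0.82 on log2 mean FPKM over 40 genes, which share libraries and lengths). Atp5b was again first with 655 FPKM, followed by Cox6a1, a complex IV subunit of the widely expressed isoform, with 477 FPKM and Atp5a1 with 407 FPKM. Uqcr11, a small complex III subunit, held rank 11 in RPF and rank 33 in total RNA. Variation between libraries was far larger in RPF, where the coefficient of variation over 8 libraries ran from 17.0% for Atp5a1 to 95.3% for Cox5b, than in total RNA, where it ran from 7.28% for Uqcrc2 to 30.4% for Uqcr11.

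**Figure D1:**
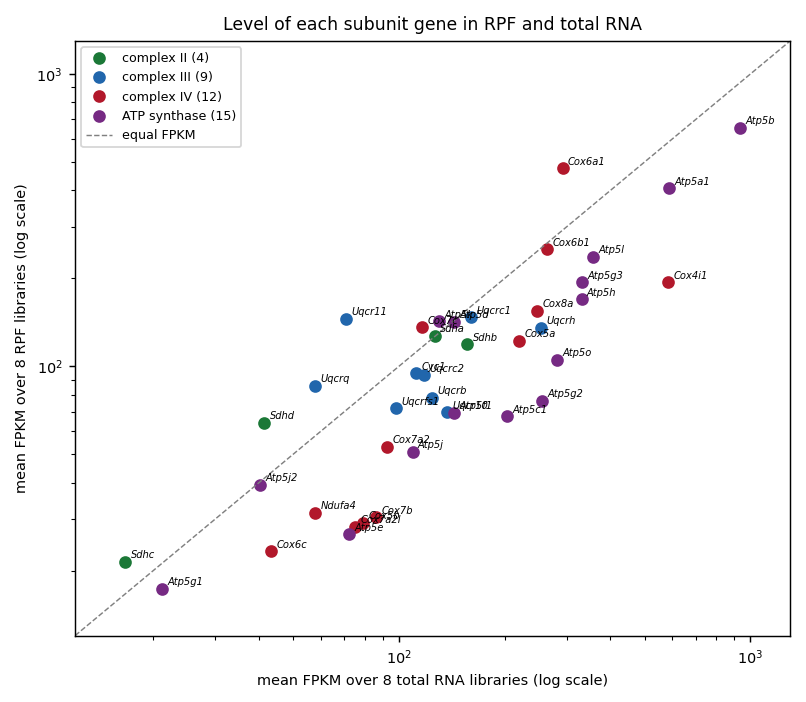
Mean FPKM of each of the 40 subunit genes over 8 RPF libraries (vertical, log scale) against 8 total RNA libraries (horizontal, log scale), coloured by complex, with a dashed line of equal FPKM. Atp5b lies at the top of both axes, and Uqcr11, Uqcrq, Sdhd and Cox6a1 are among the genes above the line.

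In total RNA, most subunit mRNAs were lower on the valine-free diet than on the control diet, by a small amount that no single gene carried past the test. Of the 40 genes, 35 had a log2 change below 0 at 0 g/kg against 8 g/kg, where 54.0% of all 10054 genes tested did. Their median log2 change was -0.23, against -0.04 over all genes tested, and the range was -0.86 to 0.29. In 22 of the 40 genes both libraries at 0 g/kg lay below both libraries at 8 g/kg, which 20.3% of all genes tested did, and only Cyc1 and Atp5e lay above both. In bulk samples, less RNA per cell and fewer cells that express a gene cannot be told apart.

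No subunit gene passed limma's test, and neither did any other gene (0% of 10054 called at an adjusted p of 0.05; limma-voom on the recovered reads called 3 genes, none of them a subunit gene). The lowest adjusted p among the subunit genes was 0.25, for Cox5b. At an unadjusted p of 0.05, 11 of the 40 genes were lower and 0 were higher, against 4.02% lower and 2.57% higher of all genes tested. With limma-voom 6 genes were lower at that p, 29 of 40 had a value below 0, and the median was -0.15 against 0.03 over all genes. The 3 diets below 8 g/kg are each set against the same 2 control libraries.

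Set against the control of the same T-ALL number, the 2 libraries at 0 g/kg differed in size of change. These matches are a description only, since the fits did not take the number as a pairing. The median log2 change of the 40 genes was -0.16 in T-ALL 2 and -0.33 in T-ALL 3, and 25 genes were lower in both, where 29.6% of all genes tested were. Across genes, the change in T-ALL 2 had a correlation with that in T-ALL 3 of r 0.0043 (rho 0.21, over 40 genes of the same libraries). With T-ALL 3 on the valine-free diet left out, 26 genes were lower, 6 at an unadjusted p of 0.05, and the median was -0.14. With T-ALL 2 on that diet left out, 34 genes were lower, 16 at that p, and the median was -0.33. Leaving out the T-ALL 2 or the T-ALL 3 control library left 5 and 4 genes lower at that p.

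**Figure D2:**
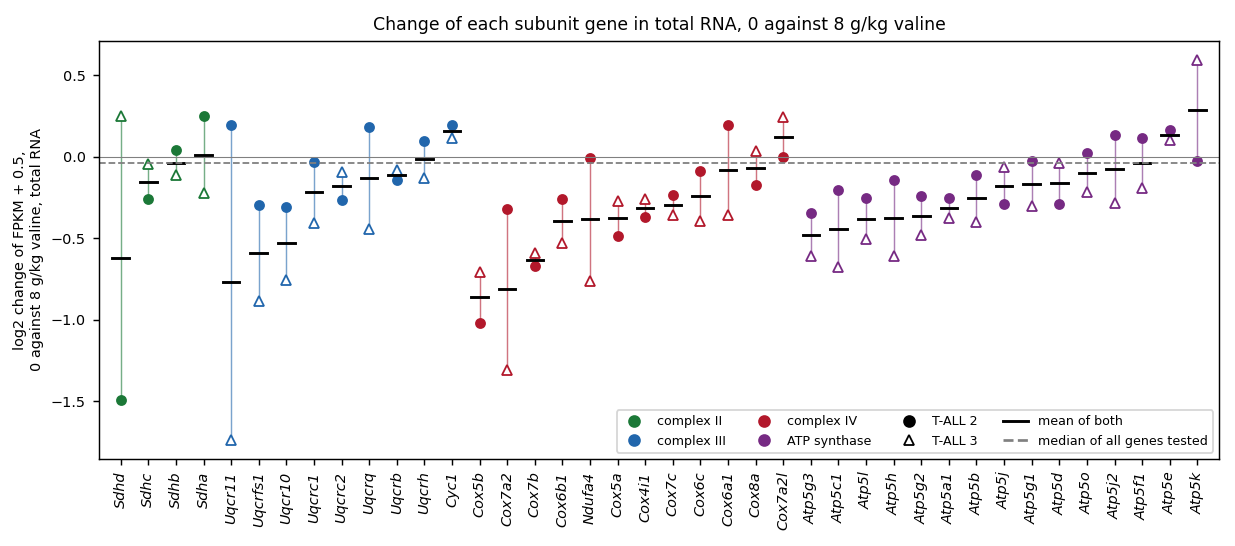
Log2 change of FPKM + 0.5 in total RNA at 0 against 8 g/kg valine for each of the 40 genes, grouped by complex and sorted within it, with T-ALL 2 as filled circles, T-ALL 3 as open triangles and the mean as a black bar. The bars of 35 genes lie below 0, and the dashed line marks the median of all genes tested, -0.04.

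Complex II stood closest to all genes. Of its 4 genes 3 had a lower value at 0 g/kg, with a median log2 change of -0.10, none had an unadjusted p below 0.05, and none had both libraries below both controls. Sdhb had 154 and 137 FPKM at 0 g/kg, 170.0 and 170.0 at 0.4 g/kg, 154 and 168 at 0.8 g/kg, and 149.8 and 148 at 8 g/kg (log2 change -0.04 ± 0.13 SE at 0 against 8 g/kg). The groups at 0 and 8 g/kg overlapped. Sdha, the flavoprotein that oxidises succinate (chromosome 13, 74322255-74350240), had 142 and 106 FPKM at 0 g/kg, against 119 and 123 FPKM at 8 g/kg, and its log2 change was 0.01 ± 0.19 SE.

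The membrane anchors Sdhc and Sdhd were noisier. Sdhd had 20.4 and 46.8 FPKM at 0 g/kg, 42.9 and 48.9 at 0.4 g/kg, 41.4 and 33.1 at 0.8 g/kg, and 58.4 and 39.2 at 8 g/kg, from 17 and 25 reads at 0 g/kg and 86 and 39 at 8 g/kg. The T-ALL numbers went opposite ways, with log2 changes of -1.50 in T-ALL 2 and 0.25 in T-ALL 3 and a mean of -0.62 ± 0.37 SE (unadjusted p 0.13, limma). Sdhc had 15.6 and 20.5 FPKM at 0 g/kg, 20.0 and 13.4 at 0.4 g/kg, 16.1 and 7.67 at 0.8 g/kg, and 18.8 and 21.2 at 8 g/kg. Its lowest value, at 0.8 g/kg in T-ALL 3, came from 8 reads.

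In complex III, 8 of 9 genes had a lower value at 0 g/kg, with a median log2 change of -0.18, and 2 of them had an unadjusted p below 0.05. Uqcrfs1, the Rieske iron-sulfur protein that takes electrons from ubiquinol (chromosome 13, 30540312-30545316), had 90.6 and 70.7 FPKM at 0 g/kg, 100.4 and 96.7 at 0.4 g/kg, 93.8 and 89.2 at 0.8 g/kg, and 112 and 131 at 8 g/kg. The control libraries were the highest 2 of the 8. Its mean was 80.7 ± 14.1 FPKM at 0 g/kg and 121 ± 13.8 FPKM at 8 g/kg (SD, n = 2 each), a log2 change of -0.59 ± 0.17 SE (limma adjusted p 0.54, unadjusted p 0.0078).

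Uqcr10, a small subunit next to cytochrome c1, had 130.2 and 94.5 FPKM at 0 g/kg, 124 and 126 at 0.4 g/kg, 137 and 167 at 0.8 g/kg, and 161 and 160.0 at 8 g/kg. The values at 0 g/kg lay below those at 8 g/kg, and those at 0.8 g/kg lay on both sides of the control values (log2 change -0.53 ± 0.18 SE, limma adjusted p 0.65). Uqcrh, the highest of the complex, showed no such order, with 253 and 244 FPKM at 0 g/kg, 226 and 285 at 0.4 g/kg, 241 and 277 at 0.8 g/kg, and 236 and 267 at 8 g/kg. Uqcr11 rested on 1 library: it had 94.4 and 27.9 FPKM at 0 g/kg, against 82.4 and 94.2 FPKM at 8 g/kg, and the 27.9 FPKM came from 7 reads. Cyc1, the cytochrome c1 that passes electrons on to cytochrome c, was above both controls, with 124 and 115 FPKM at 0 g/kg, against 108 and 106 FPKM at 8 g/kg (log2 change 0.15 ± 0.16 SE).

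Complex IV had the lowest median of the complexes at -0.35 on the log2 scale, and 11 of its 12 genes had a lower value at 0 g/kg. In 9 of them both libraries were below both controls, and 4 (Cox4i1, Cox5b, Cox7a2 and Cox7b) had an unadjusted p below 0.05. The difference between complexes was not tested. Cox5b, a zinc-binding subunit on the matrix side of the enzyme (chromosome 1, 36691487-36693388), had 57.1 and 61.3 FPKM at 0 g/kg, 81.5 and 84.6 at 0.4 g/kg, 64.3 and 66.8 at 0.8 g/kg, and 116 and 100.3 at 8 g/kg. All 6 libraries on reduced valine were below both controls, and the lowest values were at 0 g/kg. Its mean was 59.2 ± 2.96 FPKM at 0 g/kg and 108 ± 11.3 FPKM at 8 g/kg (SD, n = 2 each), a log2 change of -0.86 ± 0.16 SE (limma adjusted p 0.25, unadjusted p 0.00042), from 32 and 22 reads at 0 g/kg and 115 and 67 reads at 8 g/kg.

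Cox7b, a small membrane subunit whose gene is on the X chromosome, had 60.2 and 65.0 FPKM at 0 g/kg, 89.8 and 86.3 at 0.4 g/kg, 85.1 and 109 at 0.8 g/kg, and 96.1 and 98.3 at 8 g/kg. The 2 libraries at 0 g/kg were the lowest of the 8, while the other diets overlapped or lay close together (log2 change -0.63 ± 0.17 SE at 0 against 8 g/kg, limma adjusted p 0.47). Cox4i1 had 527 and 529 FPKM at 0 g/kg, 599 and 574 at 0.4 g/kg, 545 and 588 at 0.8 g/kg, and 680.3 and 635 at 8 g/kg. Its values at 0 g/kg were again the lowest of the 8 and its control values the highest (log2 change -0.32 ± 0.11 SE, limma adjusted p 0.65).

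Cox7a2, the widely expressed form of subunit 7a, had 79.9 and 44.8 FPKM at 0 g/kg, against 99.8 and 112 FPKM at 8 g/kg, and its lower value came from 14 reads. Cox6a1 and Cox8a had overlapping groups: Cox6a1 had 301 and 260.5 FPKM at 0 g/kg, against 264 and 334 FPKM at 8 g/kg. Cox7a2l was the one gene of this group with a value above 0 (log2 change 0.12 ± 0.17 SE). Ndufa4, named for complex I but found in complex IV, had a log2 change of -0.39 ± 0.26 SE, and most of it came from T-ALL 3.

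In ATP synthase, 13 of 15 genes had a lower value at 0 g/kg, with a median log2 change of -0.18, and in 9 both libraries were below both controls. The 5 genes with an unadjusted p below 0.05 were Atp5a1 in the catalytic head, the c-ring genes Atp5g2 and Atp5g3, the peripheral stalk gene Atp5h (subunit d) and Atp5l (subunit g, in the membrane part). Atp5g3 (chromosome 2, 73908447-73912464) had 297 and 254 FPKM at 0 g/kg, 349.6 and 326 at 0.4 g/kg, 312 and 346 at 0.8 g/kg, and 378 and 389 at 8 g/kg. Its control values were the highest of the 8 and its values at 0 g/kg the lowest, a log2 change of -0.48 ± 0.13 SE (limma adjusted p 0.47, unadjusted p 0.0052).

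Atp5g2 had 238 and 202 FPKM at 0 g/kg, 263 and 255 at 0.4 g/kg, 261 and 258 at 0.8 g/kg, and 281 and 282 at 8 g/kg, with no overlap between any reduced diet and the control (log2 change -0.36 ± 0.13 SE, limma adjusted p 0.65). Atp5g1, with the least mRNA of the 3 c-ring genes, had 21.3 and 19.9 FPKM at 0 g/kg, against 21.7 and 24.7 FPKM at 8 g/kg. Atp5b had 937 and 727 FPKM at 0 g/kg, 1023 and 978 at 0.4 g/kg, 920.5 and 914 at 0.8 g/kg, and 1013 and 959 at 8 g/kg. The value of 727 FPKM in T-ALL 3 at 0 g/kg was the lowest of the 8, and the log2 change was -0.26 ± 0.13 SE (unadjusted p 0.085, limma).

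Atp5k, subunit e at the interface between paired ATP synthases, went the other way. It had 121 and 167 FPKM at 0 g/kg, 156 and 153 at 0.4 g/kg, 94.6 and 113 at 0.8 g/kg, and 123 and 110.4 at 8 g/kg. The groups at 0 and 8 g/kg overlapped, and the log2 change was 0.29 ± 0.19 SE (unadjusted p 0.16, limma). Atp5e, the small epsilon subunit of the rotor, had 71.0 and 73.9 FPKM at 0 g/kg, against 63.4 and 68.7 FPKM at 8 g/kg, which did not overlap (log2 change 0.13 ± 0.16 SE).

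**Figure D3:**
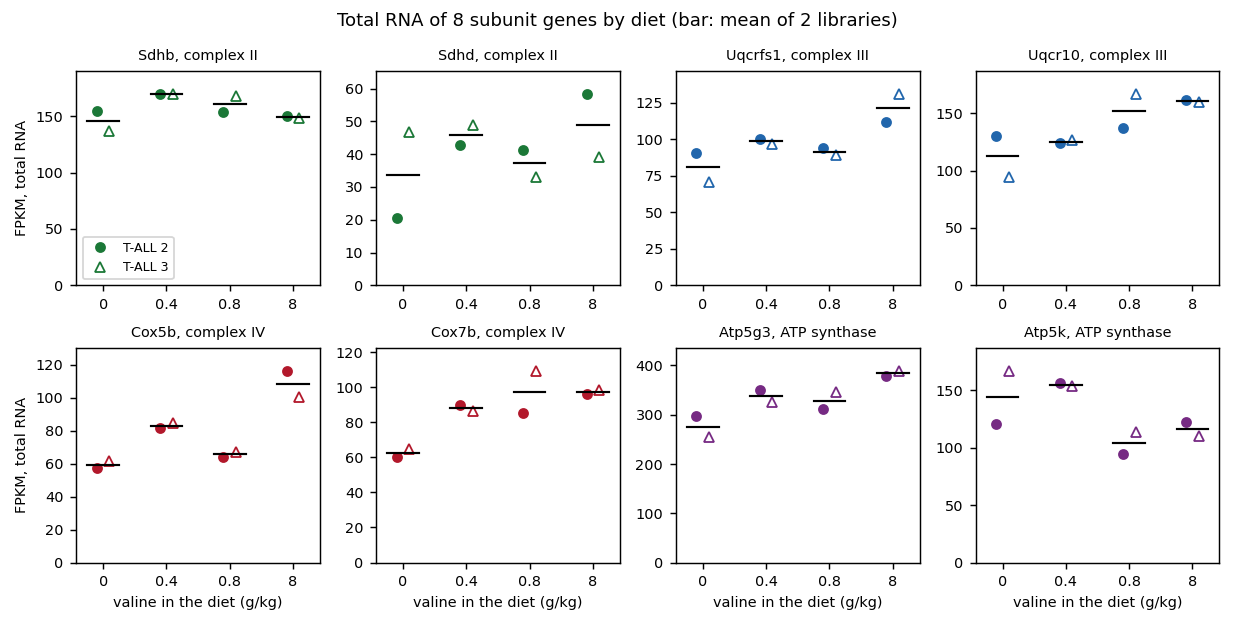
FPKM in total RNA at 0, 0.4, 0.8 and 8 g/kg valine for 8 of the subunit genes, with T-ALL 2 as filled circles, T-ALL 3 as open triangles and the mean of the 2 libraries as a bar. Cox5b, Cox7b, Uqcrfs1 and Atp5g3 have their lowest mean at 0 g/kg, while Sdhb is level across diets and Atp5k has its highest means at 0 and 0.4 g/kg.

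The intermediate diets lay closer to the control. At 0.4 against 8 g/kg, 22 of 40 genes were lower in total RNA (50.8% of all genes tested were), with a median log2 change of -0.07 against -0.01 over all genes, and only Cox5b had an unadjusted p below 0.05 as lower (1.50% of all genes tested did) and none as higher (1.59%). Both libraries at 0.4 g/kg were below both controls in 18 genes (19.0% of all genes tested) and above them in 5 (18.4%). At 0.8 against 8 g/kg, 31 of 40 were lower (53.6% of all genes tested were), with a median of -0.13 against -0.03, and Cox5b and Uqcrfs1 had an unadjusted p below 0.05 as lower (2.14% of all genes tested did), none as higher (1.31%). In both comparisons limma called 0% of the genes tested, and so did limma-voom. The doses did not order evenly: the median was lower at 0.8 g/kg than at 0.4 g/kg, and Cox5b was lower at 0.8 g/kg (log2 change -0.72 ± 0.16 SE) than at 0.4 g/kg (-0.38 ± 0.16 SE).

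Ranked by the mean of each diet, 28 of the 40 genes had their lowest total RNA level at 0 g/kg, or 70%, against 29.9% of all genes tested. These were 2 of 4 genes in complex II, 7 of 9 in complex III, 9 of 12 in complex IV and 10 of 15 in ATP synthase. The highest mean was at 8 g/kg for 19 genes, or 47.5%, against 26.7% of all genes tested. It was at 0.4 g/kg for 14 more, or 35%, against 22.4%. In RPF 15 of the 40 genes, or 37.5%, had their lowest mean at 0 g/kg, against 27.5% of all genes tested. The highest RPF mean was at 8 g/kg for 16 genes, or 40%, against 23.9%.

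A slope over the 4 diets, fitted to the rank of the dose, was positive (higher with more valine) for 32 of the 40 genes, with a median of 0.06 per diet step on the log2 scale, against 0.01 over all genes. Limma called 0% of 10054 genes at an adjusted p of 0.05, and the lowest adjusted p among the subunit genes was 0.55. At an unadjusted p of 0.05, 11 genes had a positive slope and 0 a negative one, against 3.71% and 3.08% of all genes tested, while limma-voom called 25 genes, none of them a subunit gene. With limma-voom 5 genes had a positive slope at that p and 14 of 40 had one below 0, with a median of 0.04 against -0.01 over all genes. Cox7b (0.20 ± 0.06 SE), Uqcr10 (0.19 ± 0.05 SE) and Atp5g3 (0.14 ± 0.04 SE) had the smallest p in their complexes. Leaving out 1 library at a time gave 5 to 13 genes with such a slope, with the fewest, 5, when T-ALL 3 on the valine-free diet was dropped, 6 when the T-ALL 2 control was and 7 when the T-ALL 3 control was.

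Summed over genes, the 40 mRNAs took 86.8 and 78.1 reads per 10000 of total RNA at 0 g/kg, 91.8 and 90.9 at 0.4 g/kg, 84.5 and 89.5 at 0.8 g/kg, and 94.1 and 93.6 at 8 g/kg. The control libraries were the highest of the 8 and T-ALL 3 on the valine-free diet the lowest, with a 95% Wilson interval of 75.5 to 80.8. Mean shares were 82.5 ± 6.19 at 0 g/kg and 93.8 ± 0.372 at 8 g/kg (SD, n = 2 each). An exact permutation test of 2 against 2 libraries cannot give a p below 0.333, so none was run. Intervals cover counting error only, since reads are not independent molecules.

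By complex, the share of complex II was level, at 6.21 and 5.81 reads per 10000 at 0 g/kg, 6.47 and 6.40 at 0.4 g/kg, 5.69 and 6.28 at 0.8 g/kg, and 5.99 and 6.00 at 8 g/kg. Complex IV took 14.2 and 13.6 at 0 g/kg, 16.2 and 15.4 at 0.4 g/kg, 14.1 and 16.1 at 0.8 g/kg, and 16.8 and 16.4 at 8 g/kg, so that both libraries at 0 g/kg were below both controls. ATP synthase took 53.6 and 47.2 at 0 g/kg, 57.0 and 56.2 at 0.4 g/kg, 52.3 and 55.6 at 0.8 g/kg, and 58.4 and 57.4 at 8 g/kg, with the controls highest. Complex III took 12.7 and 11.5 at 0 g/kg, against 12.9 and 13.7 at 8 g/kg, and its value in T-ALL 2 differed by less than the counting interval of 11.9 to 13.6.

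**Figure D4:**
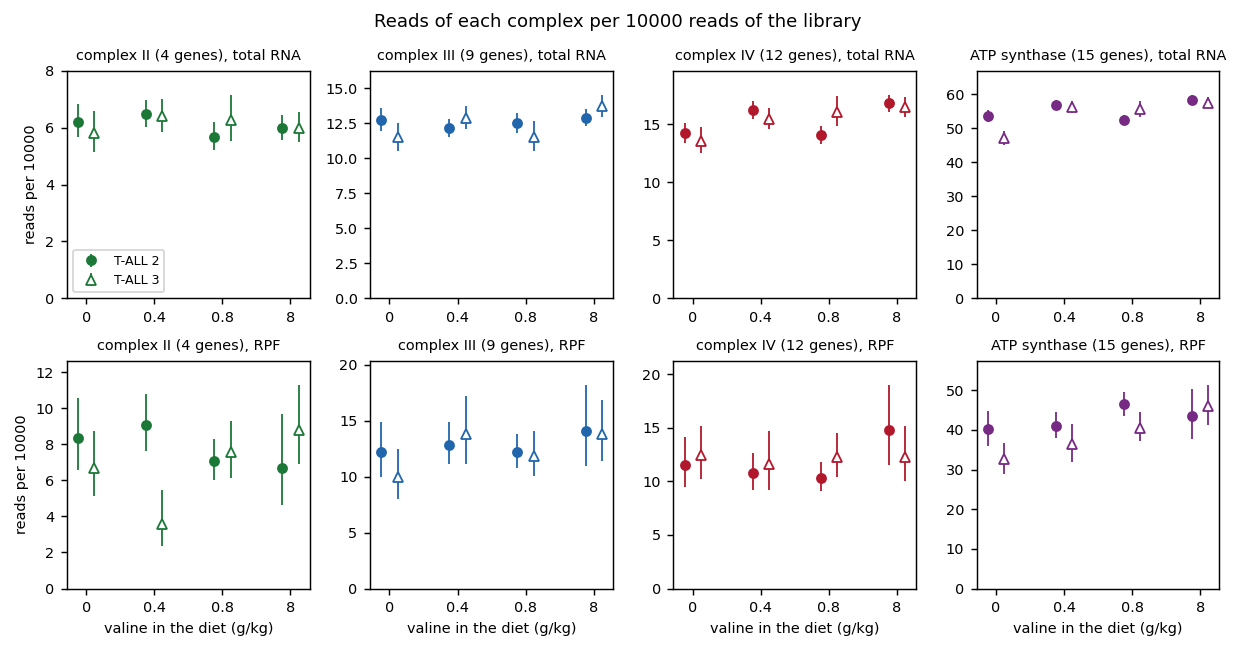
Reads of each complex per 10000 reads of the library, by diet (0, 0.4, 0.8 and 8 g/kg valine), in total RNA (upper row) and RPF (lower row), with T-ALL 2 as filled circles, T-ALL 3 as open triangles and 95% Wilson intervals as bars. In total RNA complex II stays near 6 at every diet, and both libraries of complex IV and of ATP synthase at 0 g/kg lie below both controls.

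Promoters of respiratory genes are known for sites of NRF1, of ETS family factors such as GABP, and of YY1. RefSeq promoters (GRCm38.p6, 250 bases before to 50 after the start) were matched for 31 of the 40 genes, which have 34 promoters. The letters GCGCA, any base, then GCGC (NRF1), CCGGAAG (ETS) and AAGATGGC (YY1) were searched on both strands, and no matches overlapped. NRF1 letters were in 29.4% of these promoters, against 10.2% of 11617 promoters of genes in the table and 4.60% of all 32851 promoters. ETS letters were in 35.3%, against 17.8% and 8.86%, and YY1 letters in 5.88%, against 4.45% and 2.75%. At least 1 of the motifs was in 19 of the 34 promoters, or 55.9%, against 28.8% for genes in the table and 52.9% for nuclear complex I subunits. By complex these were 3 of 3 promoters in complex II, 3 of 5 in complex III, 3 of 10 in complex IV and 10 of 16 in ATP synthase. A match describes letters and not a bound site.

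The 180 bases before the start of 4 genes show the range: Sdha has the most NRF1 matches, Cox6a1 and Atp5h have both NRF1 and ETS, and Cox5b, with the lowest total RNA change of the 40 genes, has none of the 3. Capitals mark NRF1 and ETS letters (CTTCCGG is the ETS motif on the other strand).
Sdha, chr13:74350241-74350420, minus strand: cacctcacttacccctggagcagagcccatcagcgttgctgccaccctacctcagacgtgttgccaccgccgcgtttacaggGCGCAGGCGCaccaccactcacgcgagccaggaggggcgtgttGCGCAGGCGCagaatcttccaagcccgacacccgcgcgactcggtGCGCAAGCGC
Cox6a1, chr5:115348959-115349138, minus strand: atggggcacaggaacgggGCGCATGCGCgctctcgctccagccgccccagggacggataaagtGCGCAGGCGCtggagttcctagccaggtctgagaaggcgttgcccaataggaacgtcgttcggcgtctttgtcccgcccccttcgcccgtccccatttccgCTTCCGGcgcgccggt
Atp5h, chr11:115419920-115420099, minus strand: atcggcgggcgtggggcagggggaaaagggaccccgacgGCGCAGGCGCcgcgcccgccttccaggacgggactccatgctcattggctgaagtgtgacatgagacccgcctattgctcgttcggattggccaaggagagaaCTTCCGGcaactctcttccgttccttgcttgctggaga
Cox5b, chr1:36691307-36691486, plus strand: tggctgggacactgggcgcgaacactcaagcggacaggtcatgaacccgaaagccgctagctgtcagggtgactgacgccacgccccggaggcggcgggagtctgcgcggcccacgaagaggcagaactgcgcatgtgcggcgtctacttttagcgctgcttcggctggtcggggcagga

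In RPF, which counts mRNA under ribosomes, 32 of the 40 genes had a lower value at 0 against 8 g/kg, where 43.2% of all 9718 genes tested did. The median log2 change was -0.32, against 0.12 over all genes tested. In 10 genes both libraries at 0 g/kg were below both controls (11.7% of all genes tested), and 19 genes were lower in both T-ALL numbers (16.8% of all genes tested). Limma called 0% of the 9718 genes. At an unadjusted p of 0.05, Atp5h and Atp5o were lower and none was higher, against 2.22% lower and 4.95% higher of all genes tested, and limma-voom called 6 genes, none of them a subunit gene. With every RPF library thinned to the same depth, 24 genes were lower, with a median of -0.10 against 0.0030 over all genes, and with libraries centred on their median, 34 were lower, with a median of -0.47 against -0.04.

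By complex, the median RPF change was -0.06 in complex II, -0.19 in complex III, -0.48 in complex IV and -0.40 in ATP synthase. Leaving out 1 library at a time, between 25 and 30 of the 40 genes were lower. Across genes, changes in RPF and in total RNA had a correlation of r 0.15 (rho 0.072, over 40 genes of paired libraries). For RPF changes in T-ALL 2 and T-ALL 3 it was r -0.087 (rho -0.091, over 40 genes).

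Of the complex II genes, Sdha had 103 and 107 FPKM in RPF at 0 g/kg, 179 and 67.9 at 0.4 g/kg, 155 and 159 at 0.8 g/kg, and 94.5 and 153 at 8 g/kg. Sdhd had 112 and 68.8 FPKM at 0 g/kg, 70.7 and 11.8 at 0.4 g/kg, 63.0 and 58.7 at 0.8 g/kg, and 32.8 and 95.9 at 8 g/kg, where the 11.8 came from 1 read and the 32.8 from 2. Neither gene had a difference larger than the spread between libraries of one diet.

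In complex III, Uqcrc1, a core protein related to mitochondrial processing peptidases, had 108 and 121 FPKM in RPF at 0 g/kg, 139 and 159 at 0.4 g/kg, 166 and 136 at 0.8 g/kg, and 196 and 155 at 8 g/kg. Both libraries at 0 g/kg were the lowest of the 8 (log2 change -0.61 ± 0.31 SE, unadjusted p 0.088, limma), from 24 and 27 reads at 0 g/kg and 23 and 31 at 8 g/kg. Uqcr11 had 110.1 and 128 FPKM at 0 g/kg, 116 and 225 at 0.4 g/kg, 110.3 and 97.2 at 0.8 g/kg, and 174 and 204 at 8 g/kg (log2 change -0.67 ± 0.39 SE). Those values rested on 5 to 14 reads a library. Uqcrb, a subunit at the ubiquinone site, gave read counts of 7 and 0 at 0 g/kg, 9 and 1 at 0.4 g/kg, 11 and 2 at 0.8 g/kg, and 2 and 7 at 8 g/kg, too few to show a difference at this depth.

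In complex IV, Cox7a2 had 29.4 and 44.0 FPKM in RPF at 0 g/kg, 46.4 and 60.3 at 0.4 g/kg, 56.9 and 22.3 at 0.8 g/kg, and 83.9 and 81.8 at 8 g/kg, from 2 to 9 reads a library. Its controls were the highest of the 8 (log2 change -1.19 ± 0.53 SE, unadjusted p 0.056, limma). Cox6b1, which lies on the intermembrane side of the complex IV dimer, had 413 and 161 FPKM at 0 g/kg, 283 and 343 at 0.4 g/kg, 301 and 231 at 0.8 g/kg, and 102 and 179.7 at 8 g/kg. It was among the 3 genes of complex IV with a value above 0 (log2 change 0.93 ± 0.50 SE), and the control values rested on 3 and 9 reads. Cox5b, the gene with the lowest change in total RNA, gave RPF read counts of 3 and 0 at 0 g/kg, 0 and 2 at 0.4 g/kg, 0 and 3 at 0.8 g/kg, and 3 and 4 at 8 g/kg. A count of 0 allows up to 3 reads, so an RPF difference was not detectable for Cox5b at this depth.

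ATP synthase held both genes with an unadjusted p below 0.05, and both are in the peripheral stalk that keeps the catalytic head from turning. Atp5o, the oligomycin sensitivity-conferring protein, had 59.6 and 59.3 FPKM in RPF at 0 g/kg, 173 and 97.5 at 0.4 g/kg, 102 and 117 at 0.8 g/kg, and 113 and 119 at 8 g/kg. Both libraries at 0 g/kg were the lowest of the 8, from 5 reads each (log2 change -0.96 ± 0.37 SE, limma adjusted p 0.65). Its total RNA overlapped, with 299.9 and 233 FPKM at 0 g/kg, against 296 and 271 FPKM at 8 g/kg.

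Atp5h had 142 and 103 FPKM in RPF at 0 g/kg, 155 and 159 at 0.4 g/kg, 200.3 and 186 at 0.8 g/kg, and 221 and 187 at 8 g/kg. Libraries at 0 g/kg were the lowest and controls the highest apart from T-ALL 2 at 0.8 g/kg (log2 change -0.74 ± 0.31 SE, limma adjusted p 0.68), from 11 and 8 reads at 0 g/kg and 9 and 13 at 8 g/kg. It was also the one subunit gene with an unadjusted p below 0.05 for the slope over diets in RPF (0.25 ± 0.11 SE, 2.31% of all genes tested had a positive one), and limma called 0.0103% of the 9718 genes for that slope. The slope was positive in 32 of the 40 genes and negative in 8, where 53.6% of all genes tested were negative, and it was positive in 15 of 15 of ATP synthase. At equal depth 14 of the 40 were negative, with a median of 0.09 against 0.15 without thinning.

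The best covered gene in RPF, Atp5b, had 608 and 520 FPKM at 0 g/kg, 778 and 553 at 0.4 g/kg, 814 and 671 at 0.8 g/kg, and 484 and 812 at 8 g/kg. Its groups overlapped (log2 change -0.16 ± 0.35 SE), from 105 and 90 reads at 0 g/kg and 44 and 126 at 8 g/kg.

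At the intermediate diets, RPF was lower than at 8 g/kg in 30 of 40 genes at 0.4 g/kg (44.6% of all genes tested), with a median of -0.25 against 0.08, and in 21 of 40 at 0.8 g/kg (36.1% of all genes tested), with a median of -0.04 against 0.30. The comparison at 0.8 g/kg depended on scaling and depth. Its median was -0.22 against 0.12 over all genes when libraries were centred, -0.22 against -0.18 with limma-voom and -0.05 against 0.07 at equal depth. At 0.4 g/kg the median was -0.45 against 0.0027 over all genes at equal depth and -0.38 against -0.16 with limma-voom. Limma called 0% of the genes in either comparison. At 0.4 g/kg Atp5k was lower and Cox6b1 higher at an unadjusted p of 0.05 (2.49% of all genes tested were lower and 4.18% higher), and at 0.8 g/kg 0 genes passed that p in either direction (0.854% and 4.72%). With T-ALL 3 on the 0.4 g/kg diet left out, 19 of 40 genes were lower there, with a median of 0.01 against 0.30 over all genes.

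Reads of the 40 genes took 72.3 and 61.8 per 10000 of RPF at 0 g/kg, 73.9 and 65.4 at 0.4 g/kg, 76.1 and 72.4 at 0.8 g/kg, and 79.1 and 81.1 at 8 g/kg. The means came in the order of the doses, with 67.0 ± 7.44 on the valine-free diet, 69.7 ± 5.97 and 74.2 ± 2.61 on the 0.4 and 0.8 g/kg diets, and 80.1 ± 1.39 on the control diet (SD, n = 2 each). Neighbouring diets overlapped up to 0.8 g/kg and both controls lay above the other 6 libraries, but the 95% Wilson interval of the T-ALL 2 control, 71.0 to 88.0, spanned most of them. The order held for reads and not for summed FPKM, whose means were 4749, 5041, 5486 and 5462 from 0 to 8 g/kg. By that sum the T-ALL 2 libraries at 0.4 and 0.8 g/kg (5511 and 5496) lay above both controls (5489 and 5435). ATP synthase took 40.2 and 32.6 reads per 10000 at 0 g/kg, 41.1 and 36.4 at 0.4 g/kg, 46.5 and 40.6 at 0.8 g/kg, and 43.5 and 46.1 at 8 g/kg.

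Translational efficiency was taken as log2 RPF minus log2 total RNA of the same diet and T-ALL number, which asks whether ribosome occupancy moved beyond the mRNA. At 0 against 8 g/kg it was lower in 24 of 40 genes (42.5% of all 9361 genes tested), with a median of -0.13 against 0.20 over all genes, and limma called 0% of the genes. At an unadjusted p of 0.05 none of the 40 genes was lower or higher, against 1.74% lower and 4.84% higher of all genes tested. Limma on differences of the voom log2 values called no gene at an adjusted p of 0.05 either. That fit used no voom weights. The median was 0.02 against 0.27 over all genes with the T-ALL 2 pair on the valine-free diet left out. Cox6b1 had the smallest unadjusted p of the complex IV genes (1.32 ± 0.69 SE, p 0.098, limma), Atp5j2 of ATP synthase (-1.74 ± 0.94 SE, p 0.11), Uqcrb of complex III (-3.58 ± 2.58 SE, p 0.21) and Sdhd of complex II (1.26 ± 1.14 SE, p 0.31). Atp5j2, subunit f of the membrane part, had 58.1 and 5.26 FPKM in RPF at 0 g/kg, against 70.2 and 58.7 FPKM at 8 g/kg, and the 5.26 FPKM came from 1 read. At 0.4 g/kg the median translational efficiency was -0.24 against 0.14 over all genes, and at 0.8 g/kg it was 0.23 against 0.36. The direction at 0.8 g/kg rested on the scaling. The median was -0.11 against 0.02 over all genes with libraries centred and -0.08 against -0.14 with the unweighted voom values.

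The ratio of RPF to total RNA was also averaged over all diets. Of the 40 genes 34 had a ratio below 1, with a median of -0.71 on the log2 scale, against -0.59 over all genes tested, where 74.4% were below. Limma called 9.71% of 9361 genes (6.30% lower and 3.41% higher in RPF than in total RNA), and among the 40 genes it called 3 lower and 1 higher, a share close to that of all genes tested. Both fractions are scaled to their own library, so 0 does not stand for equal density. Nor was 0 the level of the middle gene, since the median over all genes was -0.59. Summed FPKM ran from 376563 to 466612 in RPF libraries and from 537565 to 619494 in total RNA libraries. The test against 0 thus had most genes on the lower side. With libraries centred on their median, the median of the 40 genes was -0.38 against -0.26 over all genes.

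Cox4i1 was lower in RPF in 8 of 8 pairs, with a log2 ratio of -1.62 ± 0.36 SE (limma adjusted p 0.041). Atp5o (-1.49 ± 0.34 SE, adjusted p 0.044) and Atp5c1, the gamma subunit that forms the rotor shaft (-1.69 ± 0.40 SE, adjusted p 0.047), were lower in 8 of 8 pairs as well. Uqcr11 was higher in RPF in 8 of 8 pairs, at 1.05 ± 0.24 SE (limma adjusted p 0.044), with single pairs from 0.22 to 2.18. These calls are near the threshold, and none of the 4 genes was called with a pseudocount of 0.1, with the replicate block, without T-ALL 2 or without T-ALL 3. Under the other 6 alternatives Uqcr11 was called each time, and Cox4i1, Atp5o and Atp5c1 in 4 of them. None of these last 3 was called with libraries centred or at equal depth. Of the 40 genes, centring called only Cox6a1 and Uqcr11, and equal depth only Atp5g2 and Uqcr11.

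Cox6a1 was also above 0 in 8 of 8 pairs (0.66 ± 0.23 SE, limma adjusted p 0.096), and had 429.7 and 767 FPKM in RPF at 0 g/kg, 407 and 391 at 0.4 g/kg, 354 and 447 at 0.8 g/kg, and 680.1 and 338 at 8 g/kg. The lowest ratios were those of Cox5b (-3.23 ± 1.08 SE), Atp5g2 (-2.52 ± 0.80 SE) and Cox7b (-1.78 ± 0.46 SE). For Cox5b and Atp5g2 they include pairs with 0 RPF reads (3 libraries and 1 library), and Cox7b had 1 to 4 RPF reads a library. By complex the median ratio was 0.03 in complex II, -0.42 in complex III, -1.03 in complex IV and -0.79 in ATP synthase.

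**Figure D5:**
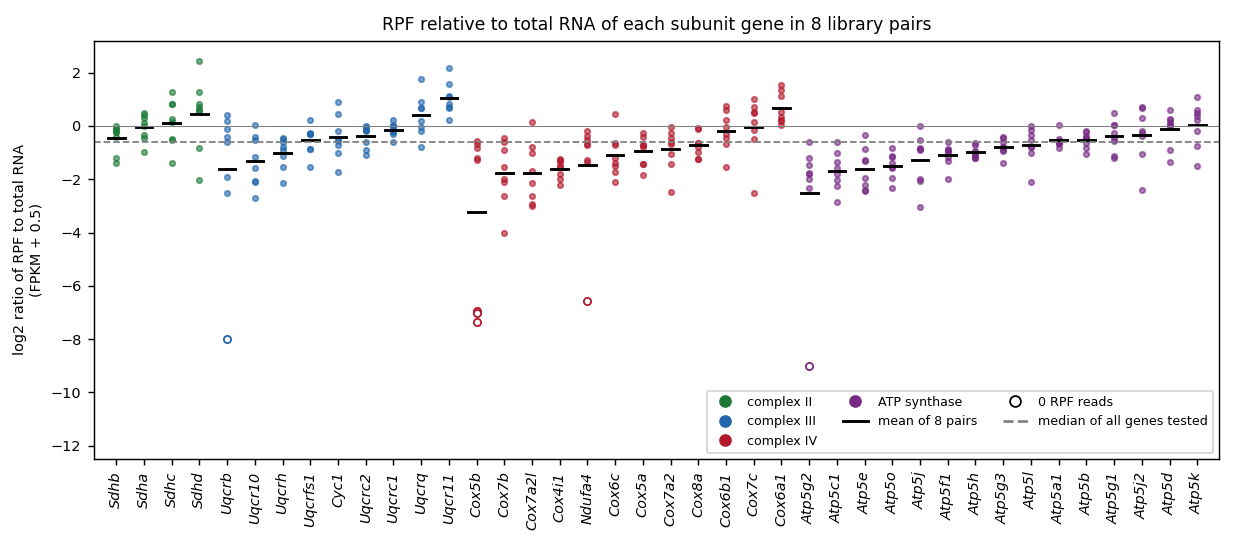
Log2 ratio of RPF to total RNA (FPKM + 0.5) of each of the 40 genes in the 8 pairs of libraries that share a diet and a T-ALL number, grouped by complex, with the mean as a black bar and pairs with 0 RPF reads as open circles. Uqcr11 and Cox6a1 lie above 0 in all 8 pairs, and the dashed line marks the median of all genes tested, -0.59.

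The genes around these complexes were read in the same fits, where percentages of all genes tested are those given above. In total RNA at 0 against 8 g/kg, 29 of 36 nuclear complex I subunits were lower, with a median of -0.16, and 3 had an unadjusted p below 0.05, among them Ndufa2 (194 and 164 FPKM at 0 g/kg, against 231 and 254 at 8 g/kg, log2 change -0.44 ± 0.15 SE). Assembly factors of complexes II to V were lower in 22 of 35, with a median of -0.13 and 5 at that p. Other isoforms and associated proteins were lower in 12 of 20, with a median of -0.08. The 6 subunits of complexes III to V that mitochondrial DNA encodes were lower in 3 and higher in 3, with a median of 0.04. The 40 nuclear subunits and the mitochondrially encoded ones were not tested against each other.

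In RPF at 0 against 8 g/kg, the mitochondrially encoded subunits were above 0 in 6 of 6, with a median of 0.71, where the 40 nuclear subunits had -0.32. T-ALL 2 carried most of it: the median was 1.09 in T-ALL 2 and 0.29 in T-ALL 3, and their reads per 10000 were 90.5 and 53.4 at 0 g/kg, against 47.3 and 51.2 at 8 g/kg. The catalytic subunit mt-Co1 had 1609 and 1102 FPKM in RPF at 0 g/kg, 757 and 1059 at 0.4 g/kg, 522 and 755 at 0.8 g/kg, and 737 and 863 at 8 g/kg. Its values at 0 g/kg were the highest of the 8, with 1102 close to 1059 (log2 change 0.74 ± 0.34 SE, unadjusted p 0.065, limma), and mt-Co2 had 1655 and 1019 FPKM at 0 g/kg, against 801 and 830.0 FPKM at 8 g/kg. In total RNA mt-Co1 overlapped, at 6585 and 5882 FPKM at 0 g/kg, against 6863 and 6454 FPKM at 8 g/kg. Whether cytosolic and mitochondrial ribosomes are protected alike in these libraries was not tested. Complex I subunits were lower in 23 of 36 in RPF, with a median of -0.43, but of 0.07 in T-ALL 2 and -0.68 in T-ALL 3. Ndufs3 had 31.8 and 21.1 FPKM at 0 g/kg, against 141 and 106 at 8 g/kg, from 3 and 2 reads, against 7 and 9. Other isoforms and associated proteins were lower in 10 of 18 tested (median -0.35). Assembly factors were lower in 12 of 31 tested, with a median of 1.51. At an unadjusted p of 0.05, 5 were higher, each with at most 4 RPF reads a library at 0 g/kg, against 0 in both controls. The median leans on counts of 0: of 36 factors, 22 and 19 had 0 RPF reads in the controls, against 12 and 14 at 0 g/kg. Together they took 7.84 and 7.58 reads per 10000 at 0 g/kg, against 6.45 and 6.30 at 8 g/kg. Regulators were lower in 5 of 15, with a median of 0.43. Of these, 6 and 6 had 0 RPF reads in the controls, against 2 and 2 at 0 g/kg.

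In the mean ratio of RPF to total RNA, limma called further genes of these lists. They were 5 of the 6 mitochondrially encoded subunits, the assembly factors Uqcc2, Uqcc3 and Pet117, the complex I subunits Ndufb5, Ndufb10 and Ndufv2, the ATP synthase subunit Usmg5 and the regulators Esrra and Tfb1m, all lower in RPF, and the regulators Pprc1 and Polrmt, both higher. The median ratio was -2.65 for the mitochondrially encoded subunits and -0.84 for the nuclear complex I subunits, against -0.71 for the 40 genes.

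Single genes of the related lists stood out by read counts. Cox6a2, the heart and muscle partner of Cox6a1, had read counts of 12 and 6 in total RNA at 0 g/kg, 2 and 1 at 0.4 g/kg, 2 and 1 at 0.8 g/kg, and 0 and 1 at 8 g/kg (limma adjusted p 0.17). Both libraries at 0 g/kg were above the other 6. Coa3, an assembly factor that acts on newly made mt-Co1 protein, had 3.49 and 8.16 FPKM at 0 g/kg, 13.8 and 14.9 at 0.4 g/kg, 13.4 and 10.3 at 0.8 g/kg, and 18.8 and 23.4 at 8 g/kg. Its values at 0 g/kg were the lowest (log2 change -1.87 ± 0.39 SE, limma adjusted p 0.30), from 2 and 3 reads, against 19 and 16 at 8 g/kg. Sdhaf4, a complex II assembly factor, gave 0 and 0 reads at 0 g/kg, against 6 and 3 reads at 8 g/kg. Usmg5, a membrane subunit of ATP synthase, had 67.9 and 14.1 FPKM at 0 g/kg, against 97.5 and 72.2 FPKM at 8 g/kg, and Atpif1, the inhibitor of ATP synthase, had 107 and 76.1 FPKM at 0 g/kg, against 115 and 119 FPKM at 8 g/kg.

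Among 15 regulators of respiratory chain genes that were tested, 6 were lower in total RNA, with a median of 0.09, and 2 had an unadjusted p below 0.05. Myc, a transcription factor that drives growth and mitochondrial biogenesis genes and lies downstream of Notch in T-ALL, had 167 and 143 FPKM at 0 g/kg, 220.5 and 183 at 0.4 g/kg, 229.8 and 201 at 0.8 g/kg, and 272 and 262 at 8 g/kg. Its values at 0 g/kg were the lowest of the 8 and its controls the highest (log2 change -0.78 ± 0.15 SE, limma adjusted p 0.27). Atf5, a factor of the mitochondrial stress response, had 34.9 and 45.1 FPKM at 0 g/kg, 26.4 and 21.0 at 0.4 g/kg, 11.7 and 48.6 at 0.8 g/kg, and 7.22 and 11.4 at 8 g/kg, and the control values were the lowest of the 8 (log2 change 2.07 ± 0.56 SE, limma adjusted p 0.47). Neither passed the test, and a relation of either to the subunit genes was not tested.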

How the data were processed

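The deposited table holds FPKM values that the authors computed per gene. Per the submitters' processing notes, cutadapt 1.18, Bowtie2 2.3.4, STAR 2.5.0c, edgeR 3.14.0 and mm10/GRCm38 were used; the sources used here do not give their roles, the counting rule, strand use or the FPKM formula. Whole reads were recovered from the FPKM steps (100% of 149988 values within 0.02 reads). Log2(FPKM + 0.5) was, for genes averaging 1 FPKM or more, fitted with limma 3.58.1 (R 4.3.3, trend, two-sided, Benjamini-Hochberg over all genes tested) on diet, over the 8 libraries of a fraction. A run on simulated counts covered only total RNA with large changes in well covered genes. It cannot speak for small changes or for RPF. A fold change on this scale understates the change of low genes. Values in every library are given mainly for the highest gene of each complex, the 2 with the smallest p at 0 against 8 g/kg and the 1 with the smallest p of the slope in each fraction, and the 3 highest and 3 lowest ratios of RPF to total RNA; of other lists, up to 2 with the smallest p and all past the test. The members and lists were chosen with earlier results of these data known. Alternatives changed the pseudocount, filter, centring, depth, replicate block, libraries and test (limma-voom on recovered reads). For translational efficiency and RPF against total RNA, the last was limma on differences of voom log2 values, without voom weights. Sequences and coordinates are from RefSeq (GRCm38.p6), where 40 of 40 genes matched.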

Additional observations from a re-analysis of the deposited data

How the results depend on the processing

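Counts of all genes past limma's adjusted p of 0.05 depended on the setting. For total RNA at 0 against 8 g/kg (0 genes) limma-voom gave 3 and equal depth 2, and for its slope (0) a pseudocount of 1 gave 2 and limma-voom 25. For RPF (0 at each diet), no filter gave 47 at 0, 18 at 0.4 and 64 at 0.8 g/kg, limma-voom 6 at 0 g/kg and equal depth 1 at 0.4 g/kg; the RPF slope (1) gave 9 with limma-voom and 0 with a pseudocount of 0.1, no filter, the stricter filter, centring, equal depth or the replicate block. RPF against total RNA (909) gave 374 with a pseudocount of 0.1, 1402 with no filter and 1925 with unweighted voom values. It gave 499 at equal depth and 239 with the replicate block. Leaving out 1 library gave 0 to 2 for total RNA at 0 g/kg, 0 to 28 at 0.8 g/kg, 0 to 5 for the slope, 0 to 56 for RPF at 0 g/kg and 0 for its slope. Leaving out all 4 pairs of 1 T-ALL number gave, for RPF against total RNA, 16 without T-ALL 2 and 14 without T-ALL 3.

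Median log2 changes at 0 against 8 g/kg moved as follows. In total RNA complex II was -0.0459 with limma-voom and -0.20 at equal depth. In RPF all 40 genes were at -0.47 with centring and -0.10 at equal depth, complex II at 0.11 and complex III at 0.0029 at equal depth, and complex III at -0.35 with centring. In translational efficiency all 40 were at -0.33 with centring, -0.21 with unweighted voom values and -0.0210 at equal depth. Complex II was at -0.20 and -0.0825 with the first 2, and complex III at 0.58 at equal depth. ATP synthase was at -0.44, -0.32 and -0.10 with the 3 in that order. Leaving out 1 library gave, in total RNA, -0.33 to -0.14 for all 40 genes, -0.15 to -0.0551 for complex II, -0.34 to -0.09 for III, -0.44 to -0.18 for IV and -0.39 to -0.14 for ATP synthase. In RPF the ranges were -0.53 to -0.17, -0.12 to 0.34, -0.55 to 0.12, -0.68 to -0.45 and -0.96 to -0.14. In translational efficiency they were -0.33 to 0.0195, 0.0372 to 0.49, -0.0654 to 0.11, -0.36 to 0.20 and -0.49 to 0.0536. Single genes changed sign for Sdhc in total RNA (0.0392 without T-ALL 2 at 0 g/kg), Sdha in RPF (0.15 without T-ALL 3 at 8 g/kg, and as low as -0.54 without T-ALL 2) and Sdhd in RPF (-0.13 without T-ALL 2 at 8 g/kg, and up to 1.41 without T-ALL 3). The cause was not tested.

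Deviations of same-numbered libraries correlated above 0.1 in some pairs of diets in total RNA (0.21 for 0 with 8 g/kg, 0.25 for 0.8 with 8 g/kg) but not in every pair (lowest -0.0396), and in no pair in RPF (-0.0158 to 0.0678), so the T-ALL number was not taken as a pairing; with the replicate block, 9 subunit genes were lower in total RNA at an unadjusted p of 0.05, against 11 without it. RPF depth limits most single genes there.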
